A study of Homo sapiens with 4 samples.

Results

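Expression was followed for 43 genes tied to the silencing of retroelements, in A375 human melanoma cells with and without p53. All are called silencers here for short, although TET1, TET2 and TET3 were listed for DNA demethylation. The list was put together by function: writers, readers and erasers of DNA and histone H3K9 methylation, the KAP1 and HUSH machinery, enzymes that act on retroelement RNA, and the piRNA pathway. All 43 were found by symbol among the 26484 genes of the deposited table. The groups were A375 p53-/- cells, a p53 knockout made with CRISPR-Cas9 (2 libraries, numbered 2 and 8 in the table), and the A375 parental line with wild-type p53 (2 libraries, numbered 1 and 2). Both were grown in DMEM, and poly(A)-selected RNA was sequenced. There was no edited control with intact p53, so p53 loss, editing and clonal selection cannot be told apart here. Nothing in the labels ties the libraries to independent clones or cultures, and p-values therefore reflect library spread, which may be technical. By its title the study asks whether p53 represses LINE1 transposons directly. The table has 0 rows for repeat elements, so LINE1 itself was not analysed here.

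LINE1 elements copy themselves through an RNA intermediate, and cells hold them down in layers. DNA methylation at the LINE1 promoter and H3K9 methylation, laid down by SETDB1 after KAP1 (TRIM28) or HUSH has recognised the element, block transcription, and cytoplasmic and nuclear enzymes act on the transcripts and RNA-DNA hybrids that escape. In the male germ line, PIWI proteins loaded with piRNAs find young elements and direct new DNA methylation to them. In most somatic cells the piRNA genes themselves are off.

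Recovered reads totalled 30334054 and 32160978 in knockout libraries 2 and 8, against 29230554 and 36331894 in parental libraries 1 and 2. SOX10, the neural crest factor that marks melanoma cells, had 28125 and 25662 normalized counts in knockout libraries 2 and 8, against 30033 and 29587 in the parental libraries, while the pigmentation genes MLANA and TYR had 0 reads in all 4. Of the 12 melanocyte and melanoma markers 9 were tested. In both knockout libraries 2 of these lay above the parental pair (22.8% of all genes tested) and 5 below it (23.7%). DESeq2 called MITF and VIM (2.44% of all genes with an adjusted p). MITF, the master regulator of melanocytes, had 849 and 1050 in the knockout libraries, against 1645 and 1562 in the parental ones (DESeq2 adjusted p = 0.00272, limma adjusted p = 0.237). VIM, an intermediate filament gene, had 52686 and 42757 in the knockout libraries, against 75622 and 69314 in the parental ones (DESeq2 adjusted p = 0.00987, limma adjusted p = 0.306). Of 12 germ cell markers, 6 had 0 reads in every library, DAZL among them, and the list summed to 122 and 172 in the knockout libraries, against 223 and 209 in the parental ones, most of it from ZP3. Markers of fibroblasts (8 genes) summed to 2666 and 1726 in the knockout libraries, against 1587 and 1527 in the parental ones, with COL1A2 and COL3A1 at 3.51 or below throughout. Of the 6 tested, FAP, DCN and PDGFRA lay above the parental pair in both knockout libraries (22.8% of all genes tested). FAP and DCN were higher with an unadjusted limma p under 0.05 (5.85% of all genes tested). Limma and DESeq2 called 0 of the fibroblast markers. The part of these markers in the silencers' values was not tested. Epithelial markers (7 genes) summed to 7730 and 7104 in the knockout libraries, against 8373 and 8264 in the parental ones, nearly all from keratins 8 and 18, with CDH1 at 0. Blood cell markers (7 genes) summed to 2469 and 1241 in the knockout libraries, against 1801 and 1573 in the parental ones, with HBB at 0. Most of it came from CD68, at 2343 and 968 in the knockout libraries, against 1704 and 1448 in the parental ones. LYZ had 114 and 263 in the knockout libraries, against 80.0 and 113 in the parental ones (limma adjusted p = 0.532). In bulk RNA, fewer cells of a type and less RNA per cell cannot be told apart.

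No silencer differed between knockout and parental cells beyond the test's threshold. Of the 43 genes, 37 had at least 10 normalized counts in at least 2 libraries and could be tested, 4 were silent (under 3 reads in every library) and 2 were near silent. The limma test on log2(normalized count + 1), adjusted over 15431 genes, called 0 of the 37 and 0 of all genes (0% called). The edgeR quasi-likelihood test and limma-voom on the recovered reads also called 0 of the 37 (0% of all genes each), and so did DESeq2, which called 2.44% of the 16330 genes with an adjusted p. At an unadjusted p under 0.05, limma gave 1 higher and 2 lower genes of the 37, against 5.85% and 6.16% of all genes tested (3 in all, against 12.0%). These were DAXX, MOV10 and ATF7IP, and the same 3 genes met that level in each of the 4 tests. Knockout and parental libraries did not overlap for 11 genes that were higher in the knockout (22.8% of all genes tested) and 11 that were lower (23.7%), 22 in all (46.4%). The median log2 fold change of the 37 was 0.0093, against -0.0057 over all genes tested.

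The intervals describe, gene by gene, the difference between these libraries given their spread. That spread may be technical, so they do not bound a difference between independent clones or cultures. For all 37 tested silencers the 95% interval of the log2 fold change lay within a 2-fold change in either direction, as it did for 74.2% of all genes tested, and for 31 of them it lay within 1.5-fold (50.6% of all genes tested). The 6 with wider intervals were TET1, SETDB2, SUV39H2, SIRT6, RNASEH2B and TDRKH. Knockout and parental means differed by more than 25%, taking the higher over the lower, for SETDB2 alone among the 37, against 26.1% of all genes tested and 16.7% of those with a mean of at least 200 normalized counts, a level that all 37 reach. The median level of the 37 was 2300 normalized counts, against 872 over all genes tested.

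**Figure D1:**
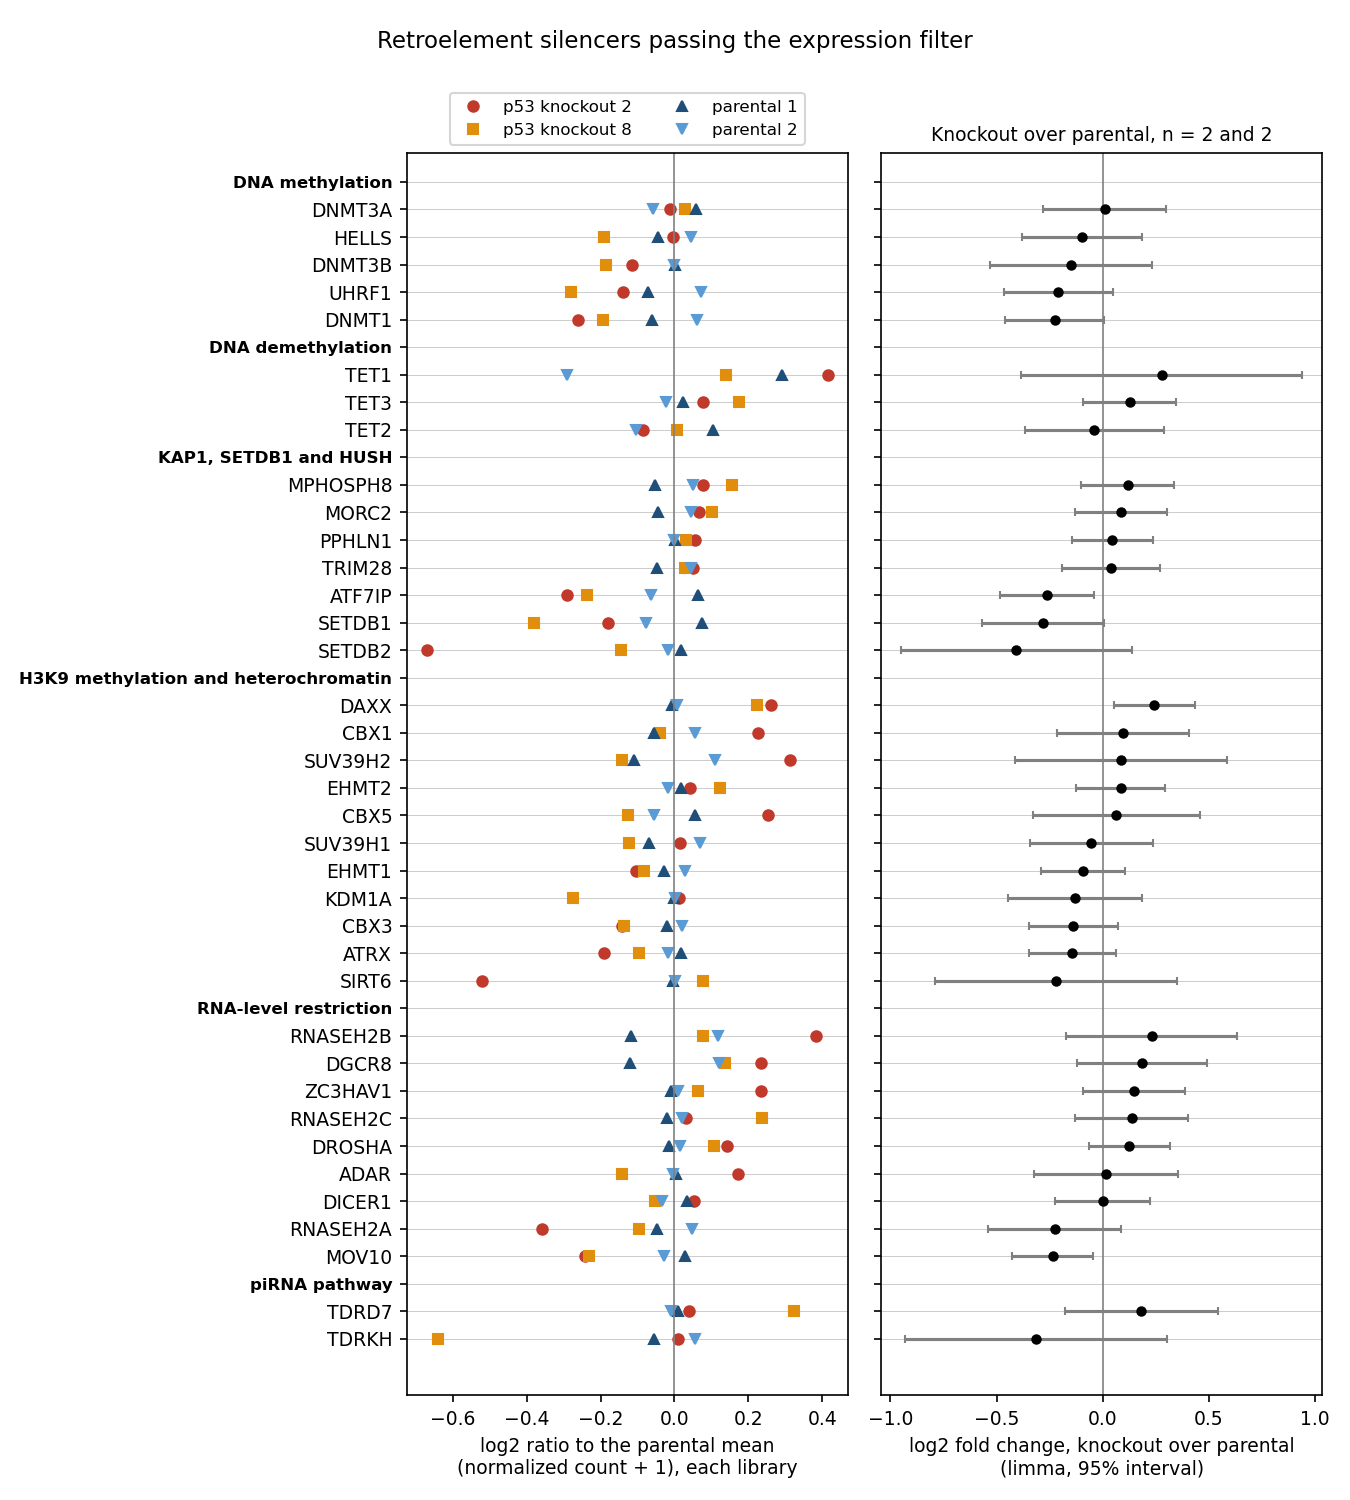
The left panel plots, for each of the 37 silencers tested, the log2 ratio of each of the 4 libraries to the parental mean, and the right panel plots the limma log2 fold change of knockout over parental with its 95% interval. Most points lie within 0.3 of 0, and SETDB2, SIRT6 and TDRKH stand out because a single knockout library lies far to the left.

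Levels were compared between genes per kilobase of exon. The 2 most abundant silencers were CBX3 (HP1 gamma, a reader of H3K9 methylation), at 5786 normalized counts per kilobase in the knockout and 6371 in the parental cells, and TRIM28 (KAP1, the scaffold that KRAB zinc finger proteins bring to retroelements), at 5734 in the knockout and 5580 in the parental cells. KDM1A, a histone demethylase, followed at 2253 per kilobase in the knockout and 2456 in the parental cells, ahead of DNMT1, ADAR, CBX1 and DAXX, all above 1000 in both groups. The 4 scarcest of the genes tested were TET1, TET2, DNMT3B and DNMT3A. TET1 had 33.5 per kilobase in the knockout and 28.1 in the parental cells, and DNMT3B had 48.8 in the knockout and 54.2 in the parental cells. TET2 lay between them, and DNMT3A just above, followed by SETDB2 and RNASEH2B.

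**Figure D2:**
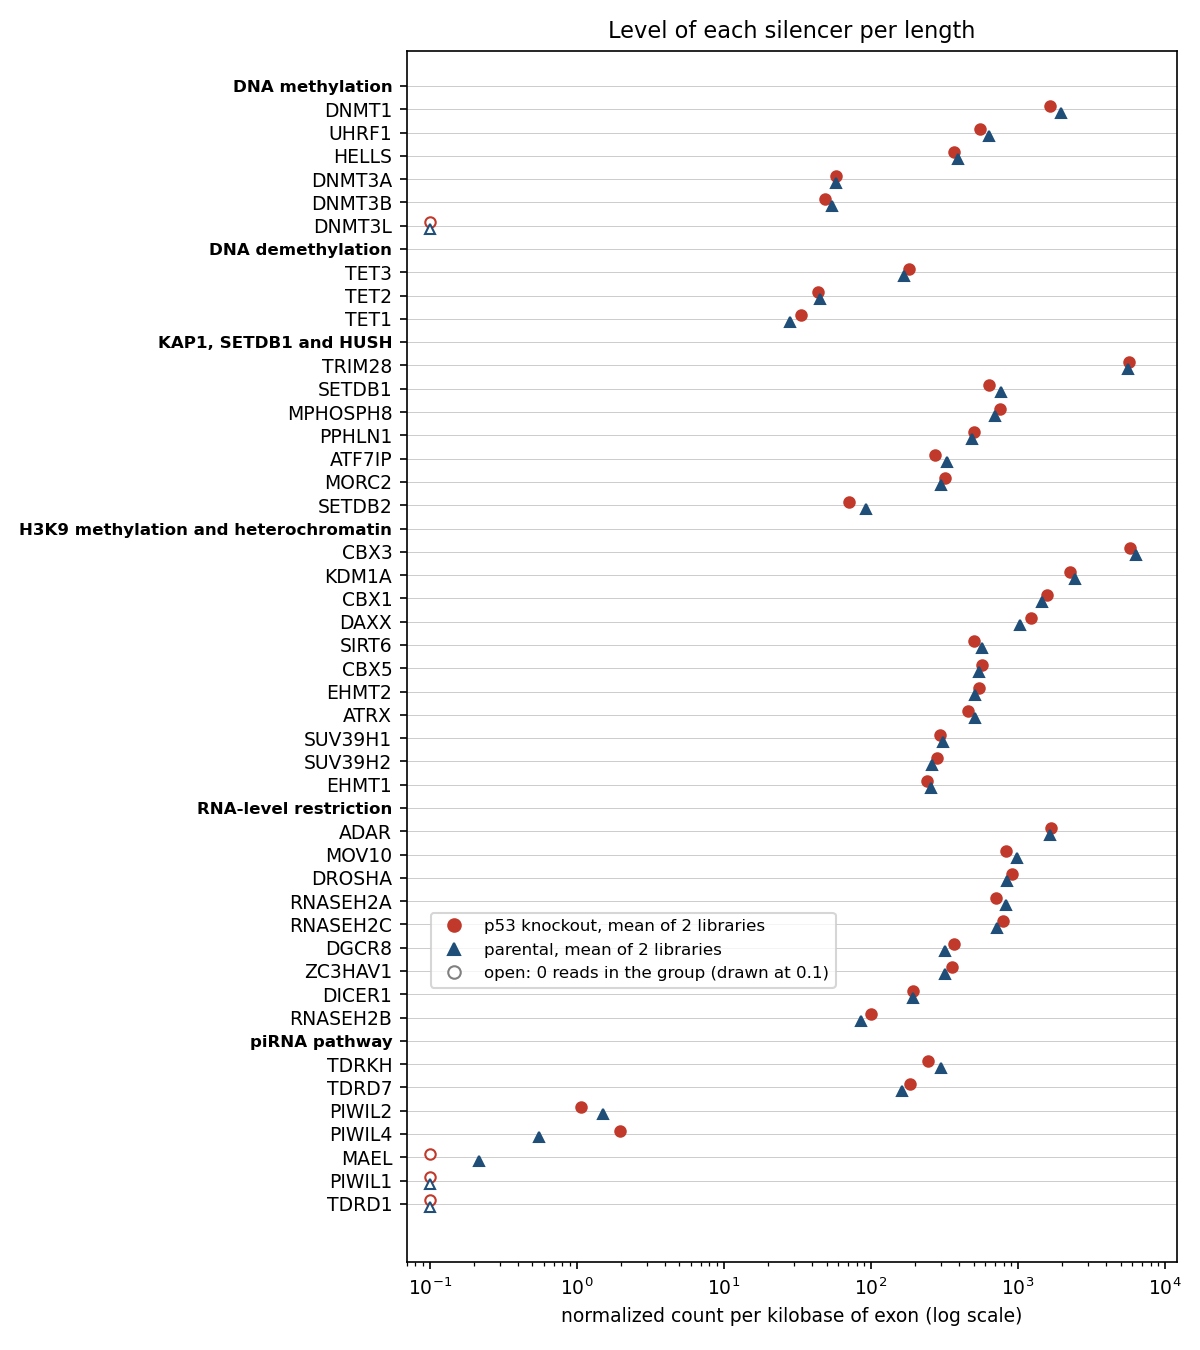
Each silencer's mean normalized count per kilobase of exon is plotted on a log scale, with the p53 knockout as circles and the parental line as triangles, and open symbols for groups with 0 reads. Knockout and parental symbols sit almost on top of each other from TRIM28 and CBX3 at the top of the range down to TET1, and the groups pull apart visibly for the scarcely detected PIWIL4, PIWIL2 and MAEL.

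Of the 5 DNA methylation genes tested, 3 had both knockout values below the parental pair (23.7% of all genes tested) and 0 had both above. None of the 5 was called. DNMT1, the maintenance methyltransferase (chromosome 19, 10133345 to 10231286 on GRCh38), had 8875 and 9309 normalized counts in knockout libraries 2 and 8, against 10196 and 11099 in the parental libraries. UHRF1, which recruits DNMT1 to hemimethylated DNA (chromosome 19, 4903080 to 4962154), had 2973 and 2699 in the knockout libraries, against 3116 and 3445 in the parental ones. Both knockout values were the lower ones for each gene, with log2 fold changes of -0.23 ± 0.09 for DNMT1 (SE; limma adjusted p = 0.421) and -0.21 ± 0.10 for UHRF1 (SE; limma adjusted p = 0.482). DNMT3B, a de novo methyltransferase, had 232 and 221 in the knockout libraries, against 251 and 251 in the parental ones, lower in both (log2 fold change -0.15 ± 0.14, SE; limma adjusted p = 0.704). DNMT3A, the other de novo enzyme, had 615 and 632 in the knockout libraries, inside the 645 and 595 of the parental ones. HELLS, a chromatin remodeller needed for methylation of repeats, had 1312 and 1152 in the knockout libraries, against 1275 and 1358 in the parental ones, and the groups overlapped.

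UHRF1, DNMT1 and HELLS are transcribed mostly in dividing cells around S phase, so the G1/S list is given beside them. Relative to the parental mean, 20 G1/S genes had a median log2 ratio of 0.24 in knockout library 2 but -0.11 in library 8, and 20 G2/M genes had 0.20 and -0.21. Parental library 2 against parental library 1 gave medians of 0.16 and 0.14. UHRF1 stood at -0.14 in knockout library 2 and -0.28 in knockout library 8, DNMT1 at -0.26 and -0.19, and HELLS at -0.0038 and -0.19. The part of proliferation in these values was not tested. Below are the 250 bases before the RefSeq start sites of UHRF1 (chr19:4909251-4909500, plus strand, GRCh38.p14) and HELLS (chr10:94545538-94545787, plus strand), shown because both hold letters of the E2F motif of S-phase genes, in capitals on either strand.
UHRF1: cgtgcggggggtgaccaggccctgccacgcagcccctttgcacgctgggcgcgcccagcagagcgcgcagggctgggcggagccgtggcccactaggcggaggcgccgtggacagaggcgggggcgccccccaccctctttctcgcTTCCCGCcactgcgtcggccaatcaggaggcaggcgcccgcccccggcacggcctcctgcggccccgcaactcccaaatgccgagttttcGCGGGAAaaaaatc
HELLS: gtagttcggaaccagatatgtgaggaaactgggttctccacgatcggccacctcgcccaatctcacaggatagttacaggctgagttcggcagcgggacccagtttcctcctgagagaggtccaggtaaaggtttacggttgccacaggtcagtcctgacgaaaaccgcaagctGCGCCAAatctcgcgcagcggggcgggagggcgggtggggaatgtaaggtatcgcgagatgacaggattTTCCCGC
Windows from 250 bases before to 50 after a RefSeq start were found for 37 of the 43 genes. Of these, 34 were tested, and PIWIL1, MAEL and TDRD1 were not. Where there were several starts, the one nearest to the GENCODE gene start was taken. The largest distances between the 2 starts were 87720 bases for PPHLN1, 44354 for HELLS, 36333 for DNMT1, 17467 for DNMT3B and 6421 for UHRF1. As E2F letters, TTCCCGC was searched for on either strand, and so were its variants, with TTGGCGC the first of these and the other being TTCGCGC. At least 1 of them was in 9 of these 37 windows (ADAR, CBX3, DNMT1, DROSHA, HELLS, KDM1A, SIRT6, TET3 and UHRF1), and in 17.4% of 10906 windows of genes tested. TTTGAA, letters of the CHR element of mitotic genes, was in 3 of the 37 windows (9.86% of the 10906). A p53 half-site was in 1 of the 37, that of RNASEH2B (5.07% of the 10906).

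The TET dioxygenases oxidise methylcytosine, a step of DNA demethylation, and none of the 3 was called. TET3, the most abundant of them per length, had 2033 and 2174 in the knockout libraries, against 1956 and 1896 in the parental ones (log2 fold change 0.13 ± 0.08, SE; limma adjusted p = 0.588). TET1 had 341 and 281 in the knockout libraries, against 312 and 209 in the parental ones, and was the single silencer whose parental libraries differed by more than 25%. Its log2 fold change of 0.28 ± 0.25 (SE; limma adjusted p = 0.690) had an interval from -0.38 to 0.94, and was 0.57 without parental library 1 and -0.013 without parental library 2. TET2 had 670 and 714 in the knockout libraries, against 764 and 661 in the parental ones. TET1 and TET2 overlapped between the groups.

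Within the KAP1, SETDB1 and HUSH group, 3 of 7 genes had both knockout values above the parental pair (22.8% of all genes tested) and 3 had both below (23.7%), the lower ones being SETDB1, SETDB2 and ATF7IP. SETDB1, the H3K9 methyltransferase that KAP1 and HUSH recruit (chromosome 1, 150926263 to 150964744), had 3170 and 2763 in the knockout libraries, against 3787 and 3409 in the parental ones (log2 fold change -0.28 ± 0.11, SE; limma adjusted p = 0.422). ATF7IP, the cofactor that holds SETDB1 in the nucleus and protects it from degradation (chromosome 12, 14365632 to 14502935), had 2898 and 3013 in the knockout libraries, against 3706 and 3397 in the parental ones. Its knockout values lay closer to each other than the parental ones did (log2 fold change -0.26 ± 0.08, SE; limma adjusted p = 0.368). SETDB2, a related SET domain protein (chromosome 13, 49444374 to 49495003), had 365 in knockout library 2 and 526 in knockout library 8, against 589 and 575 in the parental libraries. Most of the gap came from library 2, with a log2 ratio to the parental mean of -0.67, against -0.14 in library 8 (log2 fold change -0.41 ± 0.21, SE; limma adjusted p = 0.509).

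TRIM28 had 17092 and 16854 in the knockout libraries, against 15988 and 17045 in the parental ones, and overlapped. MPHOSPH8, the HUSH subunit that binds methylated H3K9, had 3138 and 3313 in the knockout libraries, against 2868 and 3081 in the parental ones (limma adjusted p = 0.613). MORC2, the ATPase that HUSH recruits to compact chromatin, had 1905 and 1951 in the knockout libraries, against 1763 and 1878 in the parental ones (limma adjusted p = 0.709). PPHLN1 (periphilin), another HUSH subunit, had 2797 and 2753 in the knockout libraries, against 2696 and 2688 in the parental ones (limma adjusted p = 0.828). All 3 were slightly higher in both knockout libraries, by less than the width of their intervals. TASOR, the HUSH scaffold (listed under its older symbol FAM208A and not on the list of 43), had 5585 and 5316 in the knockout libraries, against 6421 and 5964 in the parental ones (log2 fold change -0.18 ± 0.08, SE; limma adjusted p = 0.472).

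In the H3K9 and heterochromatin group, 2 of 11 genes had both knockout values above the parental pair (22.8% of all genes tested) and 3 had both below (23.7%), shares near those of all genes. DAXX had the smallest p of all 37. DAXX, which with ATRX loads histone H3.3 at silent repeats (chromosome 6, 33318558 to 33323016), had 3251 and 3165 in the knockout libraries, against 2700 and 2723 in the parental ones. Both pairs were tight and well apart (log2 fold change 0.24 ± 0.07, SE; limma adjusted p = 0.345). Its partner ATRX had 4974 and 5302 in the knockout libraries, against 5739 and 5605 in the parental ones, lower in both (log2 fold change -0.14 ± 0.08, SE; limma adjusted p = 0.532). The 2 partners thus lay on opposite sides of the parental values, a difference that was not itself tested.

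Of the genes for HP1 proteins, which bind methylated H3K9, only CBX3 had both knockout values on the same side of the parental pair. CBX3 (HP1 gamma) had 13059 and 13118 in the knockout libraries, against 14198 and 14623 in the parental ones, lower in both (limma adjusted p = 0.549). CBX1 (HP1 beta) had 4723 and 3931 in the knockout libraries, against 3890 and 4195 in the parental ones. CBX5 (HP1 alpha) had 7659 and 5889 in the knockout libraries, against 6679 and 6183 in the parental ones. For CBX1 and CBX5 knockout library 2 was above both parental libraries and knockout library 8 was not. CBX3 and CBX1 have 9 and 5 pseudogenes named after them in GENCODE 29, and how reads with several alignments were counted is not given in the sources used here.

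The H3K9 methyltransferases differed by little from the parental level. EHMT2 (G9a) had 2209 and 2337 in the knockout libraries, against 2171 and 2117 in the parental ones, and its partner EHMT1 (GLP) had 2583 and 2623 in the knockout libraries, against 2724 and 2834 in the parental ones. Log2 fold changes were 0.08 ± 0.08 for EHMT2 and -0.09 ± 0.07 for EHMT1 (SE; limma adjusted p = 0.700 for EHMT2 and 0.653 for EHMT1). SUV39H1, which trimethylates H3K9 in pericentric heterochromatin, overlapped, at 992 and 901 in the knockout libraries, against 935 and 1031 in the parental ones. Its paralog SUV39H2 had 1061 in knockout library 2 and 774 in knockout library 8, against 791 and 921 in the parental libraries. KDM1A had 7747 and 6345 in the knockout libraries, against 7668 and 7694 in the parental ones, with library 8 alone below. SIRT6, a deacetylase and ADP-ribosyltransferase that acts on KAP1 at LINE1, had 683 in knockout library 2 and 1033 in knockout library 8, against 978 and 982 in the parental libraries, so the groups overlapped (log2 fold change -0.22 ± 0.22, SE; limma adjusted p = 0.706).

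Among the 9 genes that act on RNA, 4 lay above the parental pair in both knockout libraries (22.8% of all genes tested) and 2 below it (23.7%). MOV10, an RNA helicase that restricts LINE1 (chromosome 1, 112673141 to 112700746), was the most even of the lower ones, at 3732 and 3756 in the knockout libraries, against 4498 and 4326 in the parental ones (log2 fold change -0.24 ± 0.07, SE; limma adjusted p = 0.357). ZC3HAV1 (ZAP), which binds CpG-rich foreign RNA, had 3114 and 2767 in the knockout libraries, against 2630 and 2668 in the parental ones (limma adjusted p = 0.571). ADAR, which edits double-stranded RNA, had 13759 in knockout library 2 and 11080 in knockout library 8, on either side of the 12246 and 12183 of the parental libraries.

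The subunits of RNase H2, which cuts the RNA strand of RNA-DNA hybrids, were not all on the same side of the parental values. RNASEH2A, the catalytic subunit, had 1768 and 2123 in the knockout libraries, against 2194 and 2345 in the parental ones, lower in both (log2 fold change -0.23 ± 0.12, SE; limma adjusted p = 0.521). RNASEH2B had 1347 and 1089 in the knockout libraries, against 952 and 1120 in the parental ones, and overlapped. RNASEH2C had 2240 and 2582 in the knockout libraries, against 2158 and 2222 in the parental ones (limma adjusted p = 0.632). It shares 26.4% of its exon length with KAT5 on the opposite strand, and whether the authors counted by strand is not given in the sources used here. Genes on the opposite strand likewise cover 25.2% of the exon length of MORC2, 21.5% of SUV39H1 and 14.1% of EHMT2. For DGCR8 a single such gene covers 11.6%, for TDRKH 10.5% and for SETDB1 8.37%, with smaller shares in some other silencers. The microRNA processors DROSHA and DGCR8, which also cut LINE1 RNA, were both slightly higher. DROSHA had 5020 and 4905 in the knockout libraries, against 4505 and 4596 in the parental ones (limma adjusted p = 0.550). DGCR8 had 1706 and 1594 in the knockout libraries, against 1333 and 1576 in the parental ones (limma adjusted p = 0.573). DICER1, which makes mature small RNAs, overlapped, at 2153 and 2003 in the knockout libraries, against 2125 and 2031 in the parental ones.

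Of the 7 piRNA genes on the list, 5 failed the expression filter, 3 of them silent and 2 near silent. PIWIL1, a PIWI protein of the testis, TDRD1, a Tudor scaffold of germ granules, and DNMT3L, the germ cell cofactor of de novo DNA methylation, had 0 reads in all 4 libraries, which allows a group mean of up to 1.52 normalized counts in the knockout and 1.46 in the parental cells (3 reads over the group, for counting error only). MAEL, a piRNA factor of the germ line, had 0 reads in the knockout libraries and 1 read, in parental library 2. PIWIL2 had 4 and 8 reads in the knockout libraries, against 9 and 8 in the parental ones. PIWIL4 had 7 and 6 reads in the knockout libraries, against 1 and 3 in the parental ones. The exact 95% Poisson interval of the PIWIL4 group mean was 3.51 to 11.3 normalized counts in the knockout and 0.531 to 4.99 in the parental cells. These intervals overlapped, which is not a test of the difference. Both knockout values of PIWIL4 lay above the parental pair, and DESeq2 gave the gene no adjusted p. Outside the list, the histone gene H3F3A also had 0 in every library. H3F3B had 18114 and 17917 in the knockout libraries, against 17290 and 17804 in the parental ones. Whether rows at 0 reflect annotation or counting was not tested.

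The 2 Tudor genes that were expressed are also used outside the germ line. TDRD7, a Tudor protein of RNA granules, had 640 and 779 in the knockout libraries, against 627 and 618 in the parental ones (log2 fold change 0.18 ± 0.14, SE; limma adjusted p = 0.638). TDRKH, a mitochondrial Tudor protein that tethers PIWI proteins, had 1162 in knockout library 2 and 739 in knockout library 8, against 1111 and 1198 in the parental libraries, so that library 8 alone was low (log2 fold change -0.32 ± 0.23, SE; limma adjusted p = 0.630).

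DNA methylation acts at the dinucleotide CpG. The windows of the silent PIWIL1, MAEL and TDRD1 each held more CpGs than the median gene not tested, and DNMT3L, also silent, had no window. These 3 genes below the filter held a median of 30 CpGs in 300 bases (17 to 60), against 25 in the 34 tested silencers with a window. The medians were 26 in 10906 genes tested and 5 in 4849 genes not tested. Relative to the number expected from base content, the median was 0.749 for these 3 and 0.877 for the tested silencers. It was 0.832 for genes tested and 0.295 for genes not tested. The 250 bases before the start are shown for these 3 and for the expressed TDRD7 (RefSeq, GRCh38.p14, plus strand), with each CpG in capitals. They are PIWIL1 at chr12:130337637-130337886, MAEL at chr1:166975332-166975581, TDRD1 at chr10:114179037-114179286 and TDRD7 at chr9:97411846-97412095.
PIWIL1: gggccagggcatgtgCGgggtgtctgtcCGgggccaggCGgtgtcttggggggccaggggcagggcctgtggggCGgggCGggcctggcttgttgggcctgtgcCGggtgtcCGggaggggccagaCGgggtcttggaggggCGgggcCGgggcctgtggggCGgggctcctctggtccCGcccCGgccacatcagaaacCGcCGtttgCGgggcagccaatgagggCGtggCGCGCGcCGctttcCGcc
MAEL: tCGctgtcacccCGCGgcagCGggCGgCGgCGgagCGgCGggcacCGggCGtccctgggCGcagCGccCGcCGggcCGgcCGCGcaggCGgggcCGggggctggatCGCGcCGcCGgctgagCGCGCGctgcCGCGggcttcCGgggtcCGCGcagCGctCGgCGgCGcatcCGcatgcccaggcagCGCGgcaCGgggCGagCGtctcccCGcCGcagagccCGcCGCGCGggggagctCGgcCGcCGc
TDRD1: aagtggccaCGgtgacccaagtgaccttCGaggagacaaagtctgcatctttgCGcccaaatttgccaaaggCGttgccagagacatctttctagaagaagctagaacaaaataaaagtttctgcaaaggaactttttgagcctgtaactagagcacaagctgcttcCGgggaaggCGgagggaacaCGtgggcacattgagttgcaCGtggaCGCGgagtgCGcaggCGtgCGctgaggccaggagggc
TDRD7: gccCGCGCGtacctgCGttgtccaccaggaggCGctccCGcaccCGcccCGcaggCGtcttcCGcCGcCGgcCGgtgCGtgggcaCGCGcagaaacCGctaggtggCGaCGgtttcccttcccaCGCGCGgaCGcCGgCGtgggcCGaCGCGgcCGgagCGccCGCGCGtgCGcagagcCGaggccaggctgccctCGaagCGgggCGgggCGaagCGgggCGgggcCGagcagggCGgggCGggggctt
In these stretches PIWIL1 has 22 CpGs, MAEL 51, TDRD1 13 and TDRD7 44. The silent MAEL thus has more than the expressed TDRD7, while the silent PIWIL1 and TDRD1 have fewer. DNA methylation was not measured.

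**Figure D3:**
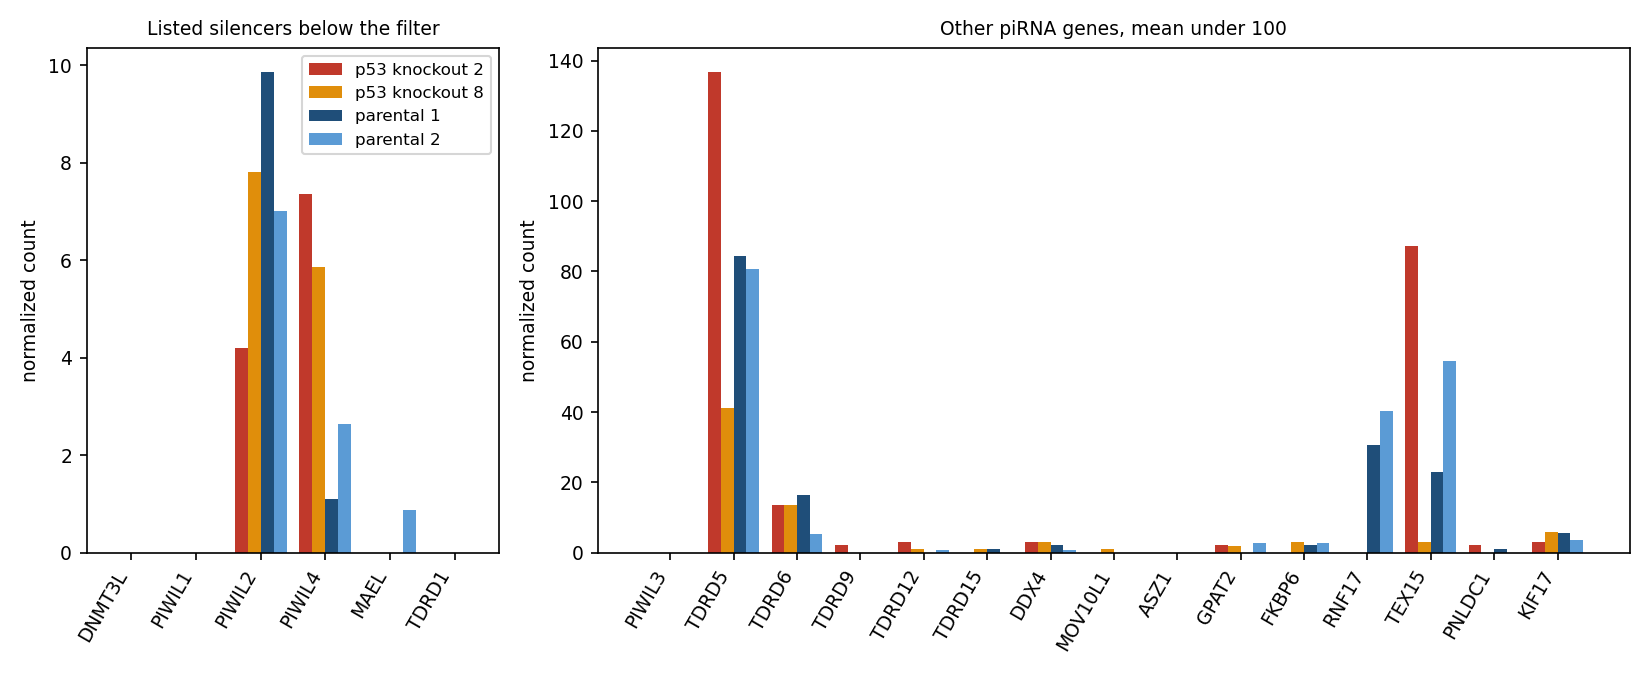
Bars give the normalized count in each library, knockout 2, knockout 8, parental 1 and parental 2 from left to right, for the 6 silencers below the expression filter (left) and for other piRNA pathway genes with a mean under 100 (right). Among the other genes, RNF17 has bars in the parental libraries alone.

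The knockout libraries differed from each other in several of these genes, and part of that followed the chromosome. Knockout libraries 8 and 2 differed by more than 25% in SETDB2, SUV39H2, CBX5, SIRT6 and TDRKH, 5 of the 37 (37.4% of all genes tested, and 28.2% of those with a mean of at least 200). The parental libraries did so in 1 of the 37 (11.3% of all genes tested, and 2.10% of those with a mean of at least 200). For each silencer, log2 ratios to the parental mean were summarised by their median over the 40 nearest genes on its chromosome with a mean of at least 100. In knockout library 2 this median was below -0.2 for 4 genes, all on the short arm of chromosome 19. SIRT6 stood at -0.52 where its neighbours stood at -0.60, and RNASEH2A at -0.36 with neighbours at -0.37. DNMT1 stood at -0.26 with neighbours at -0.48, and UHRF1 at -0.14 with neighbours at -0.62, so both lay above their surroundings in that library. The neighbourhoods of SIRT6 and UHRF1 overlap.

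In knockout library 8 the chromosome 19 neighbours were near 0, at -0.07 around UHRF1 and SIRT6, -0.04 around DNMT1 and -0.08 around RNASEH2A. There UHRF1 stood at -0.28 and DNMT1 at -0.19, while SIRT6 stood at 0.08. On chromosome 1 it was library 8 that was low: SETDB1 stood at -0.38 with neighbours at -0.33, and TDRKH, in an overlapping neighbourhood, at -0.64 with neighbours at -0.24. In library 2 the same neighbours stood at 0.05 and 0.01, where SETDB1 stood at -0.18 and TDRKH at 0.01. SETDB2 had no such surroundings, since it stood at -0.67 in library 2 with neighbours at -0.09. MOV10, ATF7IP and DAXX had neighbours between -0.06 and 0.07 in both libraries. Whether copy number differs between the lines was not tested.

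**Figure D4:**
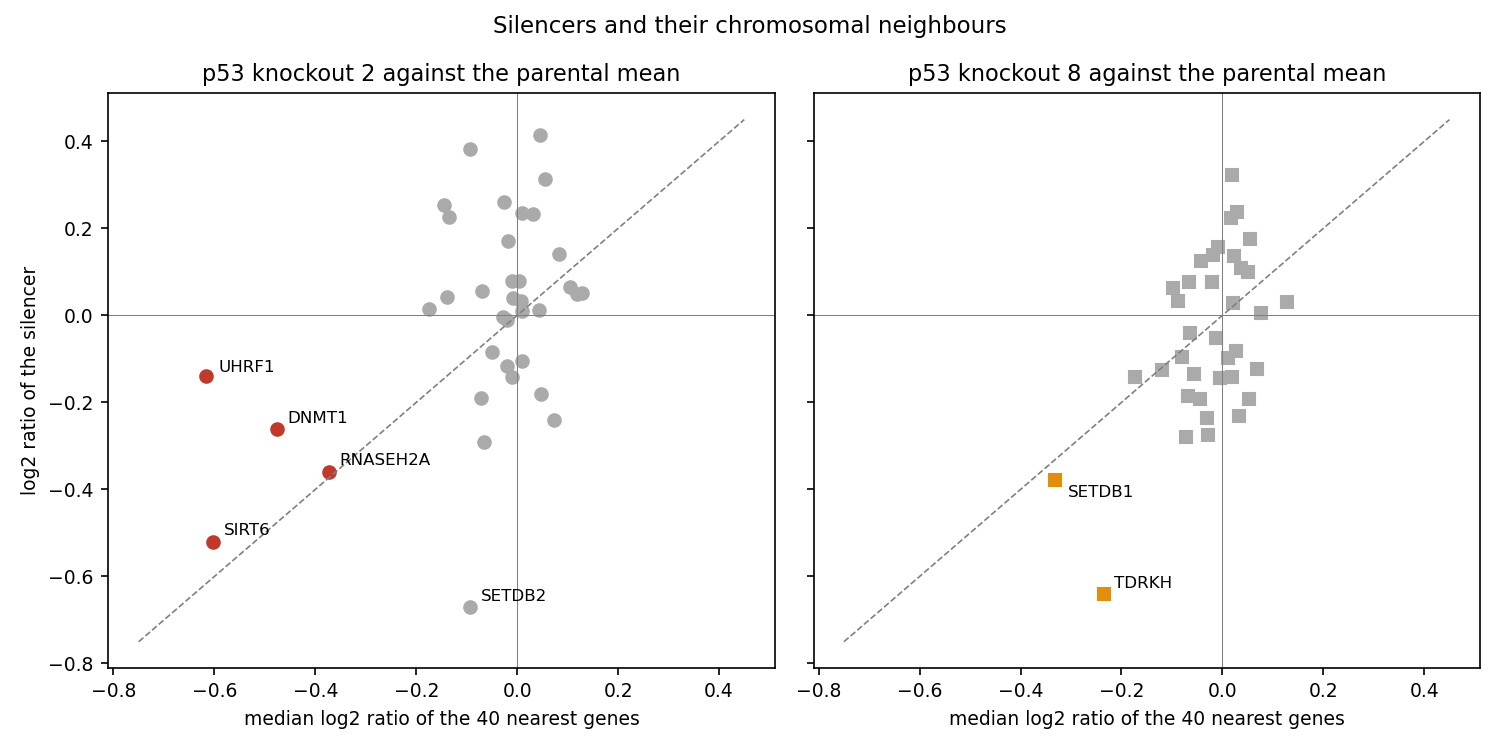
For knockout library 2 (left) and knockout library 8 (right), each point is a tested silencer, with its own log2 ratio to the parental mean on the vertical axis and the median of this ratio over its 40 nearest genes on the horizontal axis, and the dashed line marks equality. Coloured points have neighbours below -0.2, namely the 4 chromosome 19 genes in library 2 and SETDB1 and TDRKH in library 8, and UHRF1 lies well above the line in library 2.

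Set against the parental pair singly, each knockout library gave calls. With knockout library 8 left out, limma called 12 of the 37 (32.6% of all genes tested), and with knockout library 2 left out it called 9 (18.8%). The lone library is then assumed to vary like the parental pair, and both comparisons share the same parental libraries. DAXX, MOV10 and ATF7IP were called in each, but the share of all genes called in both is not given here. These genes also had the smallest p among the silencers in the fit of all libraries. That fit holds the same values, so the calls are not separate support. UHRF1, SETDB1, KDM1A, RNASEH2C, TDRD7 and TDRKH were called with library 8 as the sole knockout library, and DNMT1, SETDB2, SUV39H2, CBX1, CBX5, SIRT6, ZC3HAV1, RNASEH2A and RNASEH2B with library 2 as the sole one.

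A wider list of the same machinery held 129 other genes, of which 113 were tested. Limma called 0 of the 113. At an unadjusted p under 0.05 there were 5 genes above the parental level and 6 below it (5.85% and 6.16% of all genes tested). Both knockout values exceeded the parental pair for 25 genes and lay under it for 29 (22.8% and 23.7% of all genes tested). All these shares are close to those over all genes. Their median log2 fold change was -0.026. The genes with such a p included CDCA7, which works with HELLS, at 1270 and 1272 in the knockout libraries, against 929 and 962 in the parental ones (log2 fold change 0.43 ± 0.09, SE; limma adjusted p = 0.261). SAMHD1, a dNTP hydrolase that restricts LINE1, had 829 and 965 in the knockout libraries, against 614 and 667 in the parental ones (log2 fold change 0.48 ± 0.13, SE; limma adjusted p = 0.312).

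DESeq2 called 3 of these other genes, against 2.44% of all genes with an adjusted p, a similar share. SPOCD1, which in mice links piRNAs to DNA methylation of young LINE1 copies, had 800 and 775 in the knockout libraries, against 479 and 451 in the parental ones (DESeq2 log2 fold change 0.76 ± 0.18, SE; DESeq2 adjusted p = 0.00161, limma adjusted p = 0.206). RNF17, a Tudor protein of male germ cells, had 0 reads in both knockout libraries, against 30.7 and 40.3 normalized counts in the parental ones, at least 23.4-fold lower with 3 reads over the group as the floor (DESeq2 adjusted p = 0.00101, limma adjusted p = 0.169). The third was IFI16, an interferon-inducible DNA sensor, at 4197 and 4005 in the knockout libraries, against 5592 and 5254 in the parental ones (DESeq2 adjusted p = 0.0499, limma adjusted p = 0.259). GTSF1, a piRNA pathway factor of germ cells, was expressed in both groups, at 2910 and 2831 in the knockout libraries, against 2880 and 2967 in the parental ones. TEX15, a testis gene needed in mice for silencing of young elements and picked here after its values were seen, had 87.3 in knockout library 2 and 2.93 in knockout library 8, on either side of the 23.0 and 54.4 of the parental libraries.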

How the data were processed

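Values in the deposited table are a normalized signal per gene and library, which the authors obtained by scaling gene counts. They came out as whole reads in 100% of cases (within 0.001), so reads were recovered. The submitters' processing notes name STAR, Picard, HTSeq, DESeq2, deepTools and hg38, and the sources used here do not give versions, strand setting or annotation. The size factors (0.950 and 1.02 for knockout 2 and 8, 0.912 and 1.14 for parental 1 and 2) equal median-of-ratios factors, which centre the bulk of genes on no change, and leave gene length uncorrected.

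The main test was limma 3.58.1 (trend) on log2(normalized count + 1) across 15431 genes reaching 10 normalized counts in 2 or more libraries. Adjustment was by Benjamini-Hochberg, with 0.05 as the threshold. Fold changes on this scale are understated for low genes. As alternatives, recovered reads were tested by edgeR 4.0.16 quasi-likelihood, DESeq2 1.42.0 and limma-voom, and each fit was tested on simulated data. An exact permutation test of 2 libraries against 2 has 0.333 as its smallest two-sided p and was not used. Intervals of fold changes are limma's, from the spread between libraries. Poisson intervals and floors describe counting error alone, because PCR copies were not marked by molecular identifiers.

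Positions and exon lengths came from GENCODE 29 (GRCh38), promoters from RefSeq (GRCh38.p14). Of the 129 other genes, 8 were matched through older symbols in RefSeq. Members and lists were chosen with earlier results of these data known. The naming rule gave values in every library to members with an unadjusted p under 0.05, to the 5 largest changes each way, to members below the filter and to a set fixed by role. The remaining members are given for completeness. A comparison of HP1 protein sequences was not made, and the transcript of the targeted gene is not reported here.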

Additional observations from a re-analysis of the deposited data

How the results depend on the processing

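Limma called 0 genes and 0 of the 37 silencers with the deposited factors, a pseudocount of 0.1, no filter on low values, at least 1 CPM in 2 libraries, and TMM, upper quartile or total count factors, as did edgeR and limma-voom. DESeq2 called 398 genes and 0 silencers. With no filter on low values, 4 of 40 silencers had an unadjusted limma p under 0.05 (2161 of 20673 genes). With the filter it was 3 of 37 (1853 of 15431 genes). Leaving out 1 library gave 0 to 5023 called genes and 0 to 12 called silencers, 0 of each without a parental library. The median log2 fold change of the silencers ran from -0.052 (without knockout library 2) to 0.033 (without knockout library 8), and was 0.033 after subtracting each gene's neighbours and 0.044 without the 6 silencers in shifted neighbourhoods. The count of silencers whose groups did not overlap was 22 to 23 under other factors and filters and 27 to 32 without 1 library. With 1 library left out, fewer values are compared, so the groups fail to overlap more easily for any gene. The shares over all genes are not given here for those settings, so these counts are not a result about the silencers. DICER1, at a log2 fold change near 0, changed sign under TMM, upper quartile and total count factors, edgeR, DESeq2 and limma-voom. No other silencer did under those settings. More changed sign when 1 library was left out: 6 without knockout library 2 and 5 without knockout library 8. The sign changed for 4 without parental library 1 and for 3 without parental library 2. No paired analysis was possible because the knockout libraries are numbered 2 and 8 in the table, unlike the labelled replicates 1 and 2.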
